A study of Homo sapiens with 6 samples.

Results

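The sympathoadrenal lineage transcription factors described here are HAND1, HAND2, GATA2, GATA3, ISL1, PHOX2A, TFAP2B and SOX11. They were taken by gene name from a table of 58735 annotated features, in which all 8 were found, each as 1 row. The libraries came from cells labelled BE(2)-C, an established human neuroblastoma line known for amplification of MYCN. Per the labels, cells of both groups were grown in DMEM with calf serum, infected with lentivirus and kept as stable lines under puromycin. The NS group (n = 3 libraries, genotype tag Wildtype) carried a non-silencing short hairpin RNA, and the shACSS2 group (n = 3 libraries, genotype tag ACSS2 deficiency) carried a hairpin against ACSS2, which makes acetyl-CoA from acetate in nucleus and cytosol. The titles write siACSS2, and the treatment text names the line shNgBR in 1 place, so the reagent is described inconsistently in the labels. How many hairpins, infections or clones lie behind a line, and whether libraries of the same group stem from cultures kept apart, is not stated in the labels. All p-values therefore measure only the spread between these libraries, which may be technical.

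These factors belong to the programme by which neural crest cells become sympathetic neurons and adrenal chromaffin cells. Bone morphogenetic proteins (BMPs) from the dorsal aorta set the programme off, and PHOX2A, HAND2, GATA2, GATA3, ISL1 and TFAP2B take part in it. Together they drive the enzymes of noradrenaline synthesis, TH and DBH. In neuroblastoma of the adrenergic type, HAND2, GATA3, ISL1 and TFAP2B bind each other's genes in a self-sustaining circuit, and SOX11 is a further lineage factor of that state.

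Library totals ran from 16617885 to 20831599 counts. ACSS2 itself stood at 20.5 ± 0.324 CPM (counts scaled to a common library size, here with edgeR's TMM composition factors; SD, n = 3) in NS and at 5.32 ± 0.762 CPM (SD, n = 3) in shACSS2. On the second principal component, which held 20.3% of the variance, shACSS2 replicate 1 lay at -24.5, away from shACSS2 replicates 2 and 3 at 18.9 and 13.0. Of 11 defining markers of sympathoadrenal neuroblastoma, 4 had 0 counts in all 6 libraries (PHOX2A, TFAP2B and TH among them), 8 had a mean under 2 CPM, and 2, GATA3 and ISL1, had a mean of at least 5 CPM. MYCN stood at 1.28 ± 0.620 CPM on library totals (SD, n = 6 over both groups, so that a change between them is part of the spread). Most defining markers of the labelled cell type were thus at or near 0, and the cells are called by their label throughout.

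The 8 factors fell into 2 kinds. HAND1, GATA2, GATA3, ISL1 and HAND2 were detected in every library. PHOX2A, TFAP2B and SOX11 had 0 counts in every library of both groups. Of the 5 detected factors, HAND1, ISL1 and GATA2 rose in shACSS2, 0 fell, and GATA3 and HAND2 did not pass the test (quasi-likelihood test of edgeR at a Benjamini-Hochberg adjusted p under 0.05, over 16210 genes tested). Over all genes tested, 17.1% were called, 7.48% higher and 9.64% lower in shACSS2. The TMM CPM of the groups did not overlap for 3 of the 5 detected factors, against 36.3% of all genes tested. In all 5 the lowest of the shACSS2 libraries was replicate 1, the library that stood apart on the second component. By an unadjusted edgeR p under 0.05, 0 of the factors were lower, and by DESeq2 0. In bulk RNA, fewer cells of a type and less RNA per cell cannot be told apart.

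**Figure D1:**
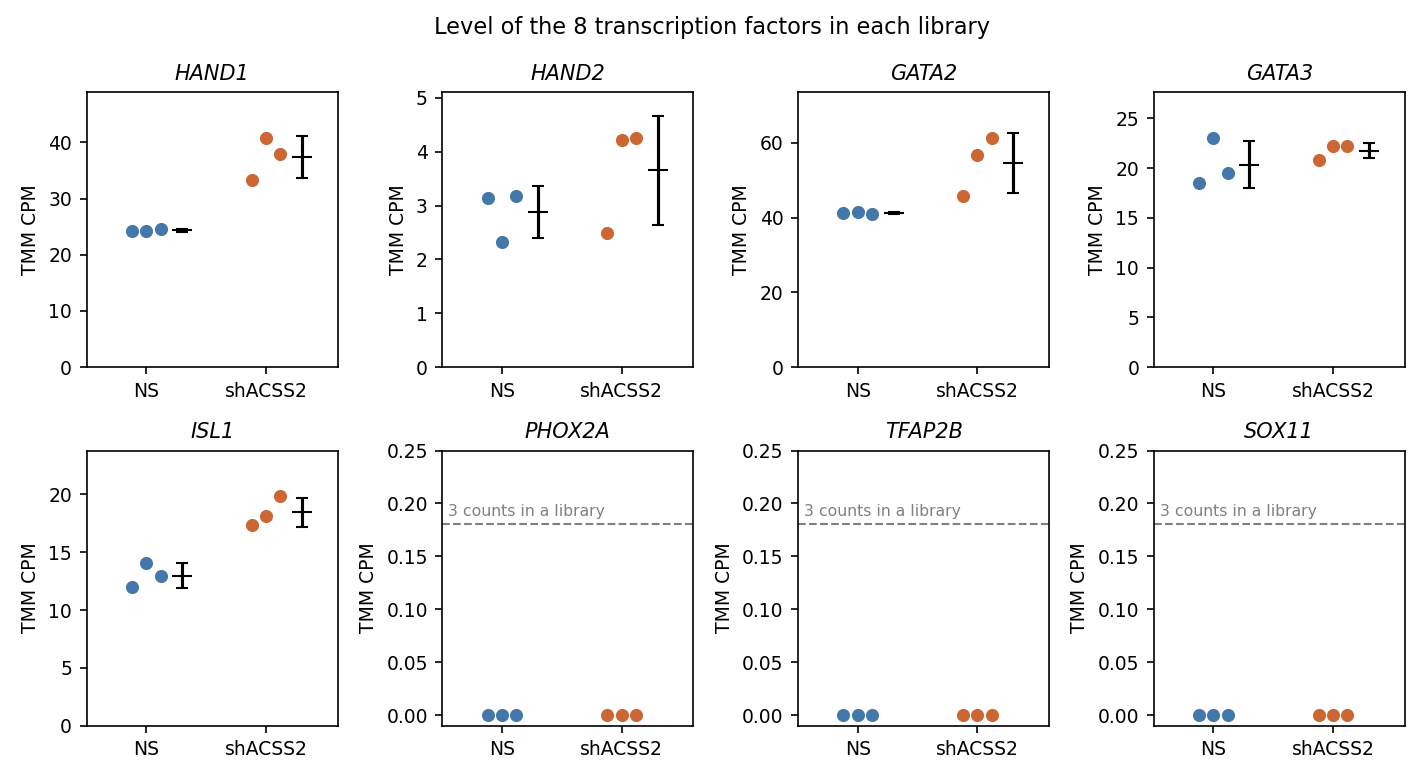
Level of each of the 8 factors in TMM-normalised CPM (vertical axis, linear, own scale per panel) in the 3 NS and 3 shACSS2 libraries (points, replicates 1 to 3 from left to right), with the group mean and SD in black. All shACSS2 points lie above all NS points for HAND1, GATA2 and ISL1, while PHOX2A, TFAP2B and SOX11 lie at 0 in all 6 libraries; the dashed line marks 3 counts in the shallowest library, 0.181 CPM.

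HAND1 and HAND2 are basic helix-loop-helix factors that pair with E proteins such as TCF3 and bind E-boxes. HAND2 is needed for sympathetic neurons to form and to make noradrenaline, whereas HAND1 is best known from heart and placenta. HAND1 (ENSG00000113196, chromosome 5, 154474972 to 154478264, minus strand, GENCODE v29 on GRCh38) had 426, 458 and 535 counts in the NS libraries, and 536, 667 and 676 in those of shACSS2. In TMM CPM these were 24.3, 24.2 and 24.7 in NS and 33.4, 40.8 and 37.9 in shACSS2. The NS libraries lay within 1 CPM of each other and every shACSS2 library lay above them, shACSS2 replicate 1 being the lowest of the 3. HAND1 rose from 24.4 ± 0.256 to 37.3 ± 3.73 CPM (SD, n = 3 each), a fitted fold of 1.53 (95% interval 1.30 to 1.80). The log2 fold change was 0.62 (SE 0.111) at an edgeR adjusted p of 0.00206, and it passed the test under all 14 alternatives tried, with adjusted p up to 0.0208. Permuting the group labels of log2(CPM + 0.5) in an exact test, two-sided, gave p = 0.1, the smallest that 3 against 3 libraries allow.

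HAND2 (ENSG00000164107, chromosome 4, 173524969 to 173530229, minus strand) was the scarcest of the detected factors, with 55, 44 and 69 counts in the NS libraries, and 40, 69 and 76 in those of shACSS2. In TMM CPM it stood at 3.13, 2.32 and 3.18 in NS and at 2.49, 4.22 and 4.26 in shACSS2. The groups overlapped, because shACSS2 replicate 1 lay among the NS libraries while shACSS2 replicates 2 and 3 lay above them. The log2 fold change was 0.35 (SE 0.252) at an edgeR adjusted p of 0.366, and its 95% interval of -0.19 to 0.88 holds both no change and the change of HAND1. HAND2 shares 867 of its 3601 annotated exon bases (24.1%) with HAND2-AS1, a noncoding gene on the other strand. Neither labels nor notes say whether the counting used strand, so reads in that stretch cannot be assigned with certainty to either gene. HAND2-AS1 had 24, 25 and 43 counts in the NS libraries, and 23, 21 and 39 in those of shACSS2, with a log2 fold change of 0.07 (SE 0.329) at an edgeR adjusted p of 0.914.

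The HAND promoters differ in their letters in the stretch just before the start, and are shown because HAND1 was 19.5-fold above HAND2 per length. Each run gives the 250 bases before the RefSeq start, 5′ to 3′ on the strand of the gene (GRCh38.p14; HAND1 at chr5:154478228-154478477 and HAND2 at chr4:173530230-173530479, both on the minus strand). Capitals mark GATA motifs (NGATAN with A or T before the core and A or G after it, on either strand) and E-boxes (CANNTG, which reads the same on both strands), with overlapping matches counted.
HAND1: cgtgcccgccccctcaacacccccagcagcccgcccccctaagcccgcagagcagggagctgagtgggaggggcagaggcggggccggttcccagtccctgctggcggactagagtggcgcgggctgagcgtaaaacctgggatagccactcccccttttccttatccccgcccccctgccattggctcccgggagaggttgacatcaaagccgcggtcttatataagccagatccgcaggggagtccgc
HAND2: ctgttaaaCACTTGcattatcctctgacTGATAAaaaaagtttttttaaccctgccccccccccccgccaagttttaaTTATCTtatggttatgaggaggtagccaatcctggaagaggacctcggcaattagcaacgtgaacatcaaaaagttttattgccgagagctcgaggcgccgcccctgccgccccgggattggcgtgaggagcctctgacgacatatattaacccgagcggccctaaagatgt
HAND1 held 0 GATA motifs and 0 E-boxes in this window, and HAND2 held 2 GATA motifs and 1 E-box. Of 35116 RefSeq promoter windows of the same length, 22.3% held a GATA motif and 61.8% an E-box. A match describes letters and is no measured site.

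GATA2 and GATA3 are zinc finger factors that bind GATA motifs. Both are known for roles in blood as well as in sympathetic neurons, where GATA3 supports TH expression and survival. GATA2 (ENSG00000179348, chromosome 3, 128479427 to 128493185, minus strand) had 725, 784 and 889 counts in the NS libraries, and 735, 926 and 1095 in those of shACSS2. In TMM CPM these were 41.3, 41.4 and 41.0 in NS and 45.8, 56.6 and 61.3 in shACSS2. The groups did not overlap, but shACSS2 replicate 1 lay much nearer to the NS libraries than to shACSS2 replicates 2 and 3. GATA2 rose from 41.2 ± 0.221 to 54.6 ± 7.98 CPM (SD, n = 3 each), a log2 fold change of 0.41 (SE 0.114) at an edgeR adjusted p of 0.0244 and a fold of 1.32 (95% interval 1.12 to 1.57). The exact permutation test gave p = 0.1.

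The call of GATA2 was close to the threshold. It ended when NS replicate 1, 2 or 3 or shACSS2 replicate 2 or 3 was left out, with log2 estimates of 0.40, 0.41, 0.40, 0.38 and 0.31 and with edgeR adjusted p of 0.106, 0.0621, 0.0943, 0.0659 and 0.116, in that order. Without shACSS2 replicate 1 the log2 fold change was 0.52 (edgeR adjusted p = 0.000418). It also ended on library totals, at 0.33 (edgeR adjusted p = 0.0581). Its direction was the same in all of these.

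GATA3 (ENSG00000107485, chromosome 10, 8045378 to 8075203, plus strand) had 325, 436 and 423 counts in the NS libraries, and 335, 363 and 397 in those of shACSS2. In TMM CPM it stood at 18.5, 23.0 and 19.5 in NS and at 20.9, 22.2 and 22.2 in shACSS2. The highest library of all 6 was NS replicate 2 and the lowest NS replicate 1, so the shACSS2 libraries fell inside the range of NS. The log2 fold change was 0.10 (SE 0.122) at an edgeR adjusted p of 0.624, with a 95% interval of -0.16 to 0.36. Its upper end lies below the fitted change of GATA2, but it overlaps the 95% interval of GATA2, 0.16 to 0.65. Whether GATA2 and GATA3 differ in their change was not tested.

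Both genes have a noncoding neighbour on the other strand that shares 0 exon bases with them. GATA2-AS1 stood at 21.2 ± 1.74 CPM in NS and 25.2 ± 0.267 CPM in shACSS2 (SD, n = 3 in either group), with an edgeR estimate of 0.25 in log2 units (SE 0.114) and an adjusted p of 0.139. GATA3-AS1 had 8, 7 and 11 counts in the NS libraries, and 2, 1 and 3 in those of shACSS2. These groups did not overlap, but the counts lay under the expression filter and were not tested. In the RefSeq table GATA2 has 2 starts and GATA3 has 6, and the counts do not tell them apart.

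ISL1 is a LIM homeodomain factor of sympathetic, sensory and motor neurons, and acts through the adaptor LDB1. ISL1 (ENSG00000016082, chromosome 5, 51383391 to 51394738, plus strand) had 210, 266 and 280 counts in the NS libraries, and 279, 297 and 354 in those of shACSS2. In TMM CPM these were 11.96, 14.1 and 12.9 in NS and 17.4, 18.2 and 19.8 in shACSS2. Every shACSS2 library lay above every NS library, and here shACSS2 replicate 1 lay close to replicate 2. ISL1 rose from 13.0 ± 1.05 to 18.5 ± 1.25 CPM (SD, n = 3 each), a log2 fold change of 0.51 (SE 0.128) at an edgeR adjusted p of 0.0138 and a fold of 1.42 (95% interval 1.18 to 1.72). The exact permutation test gave p = 0.1. The call ended without NS replicate 1 or 3 or shACSS2 replicate 3, with log2 estimates of 0.45, 0.50 and 0.46 and with edgeR adjusted p of 0.0955, 0.0604 and 0.0589, in that order.

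The window before the RefSeq start of ISL1 is printed because it carries motifs of 2 kinds that the factors of this programme bind (250 bases at chr5:51383198-51383447, plus strand, GRCh38.p14, capitals as for the HAND genes).
ISL1: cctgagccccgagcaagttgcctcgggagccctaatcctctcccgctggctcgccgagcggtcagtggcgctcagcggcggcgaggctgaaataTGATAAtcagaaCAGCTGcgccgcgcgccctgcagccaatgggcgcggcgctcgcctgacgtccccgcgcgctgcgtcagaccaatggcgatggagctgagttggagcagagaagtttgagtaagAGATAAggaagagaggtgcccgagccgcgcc
It held 2 GATA motifs and 1 E-box, and 27 CpG dinucleotides where the median window of the table had 11.

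**Figure D2:**
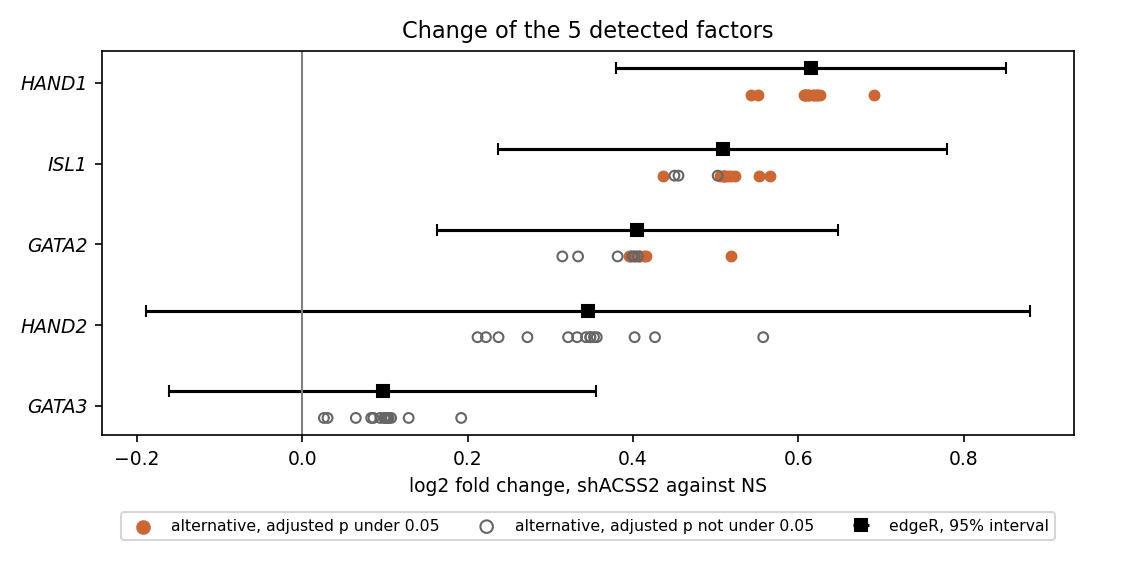
Log2 fold change of shACSS2 against NS for the 5 detected factors (horizontal axis), with the edgeR estimate and its 95% interval in black and the 14 alternatives below each as circles, filled where the adjusted p was under 0.05. All 14 circles of HAND1 are filled, 11 of 14 for ISL1 and 8 of 14 for GATA2, and none for HAND2 and GATA3.

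PHOX2A, TFAP2B and SOX11 gave no count in any library. PHOX2A (ENSG00000165462, chromosome 11, 72239077 to 72245664, minus strand) is a paired-like homeodomain factor that activates the DBH and TH genes. TFAP2B (ENSG00000008196, chromosome 6, 50818723 to 50847613, plus strand) is an AP-2 factor that promotes noradrenergic differentiation. SOX11 (ENSG00000176887, chromosome 2, 5692667 to 5701385, plus strand) is a SOXC factor of embryonic neurons. With 108405728 counts in all libraries together, the limit set for a gene without counts was 3 counts over the 6 libraries, or 0.0277 CPM. Within a library 3 counts are 0.144 to 0.181 CPM. The limit is a working bound, and a level above it is not excluded. Such limits take in the error of counting alone, since without molecular identifiers several reads can come from 1 molecule. No change between the groups could be measured for these genes.

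A count of 0 is not rare by itself, since 2816 of 19951 protein-coding genes (14.1%) had 0 counts in all 6 libraries. Little of the exons of these genes overlaps another gene. PHOX2A shares 29 of 1784 exon bases (1.63%) with INPPL1 on the other strand, SOX11 shares 74 of 8719 (0.849%) with AC108025.2 on its own strand, and for TFAP2B no overlapping gene was found in the annotation. Per kb of annotated exon, the limit over all libraries is 0.0155 CPM for PHOX2A, 0.0045 CPM for TFAP2B and 0.00317 CPM for SOX11. The long exon of SOX11 makes its limit the lowest.

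The windows before the RefSeq starts of PHOX2A and TFAP2B are printed to set undetected factors beside detected ones (250 bases each, GRCh38.p14). They lie at chr11:72244177-72244426 on the minus strand and chr6:50818621-50818870 on the plus strand. RefSeq and GENCODE place some starts differently. The window of PHOX2A lies wholly inside its GENCODE span, and those of TFAP2B, HAND1 and ISL1 lie partly inside theirs.
PHOX2A: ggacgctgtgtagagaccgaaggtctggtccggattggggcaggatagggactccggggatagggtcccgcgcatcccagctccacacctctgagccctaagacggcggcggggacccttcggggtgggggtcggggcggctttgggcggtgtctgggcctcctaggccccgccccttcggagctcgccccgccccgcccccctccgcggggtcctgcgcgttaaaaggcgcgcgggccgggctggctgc
TFAP2B: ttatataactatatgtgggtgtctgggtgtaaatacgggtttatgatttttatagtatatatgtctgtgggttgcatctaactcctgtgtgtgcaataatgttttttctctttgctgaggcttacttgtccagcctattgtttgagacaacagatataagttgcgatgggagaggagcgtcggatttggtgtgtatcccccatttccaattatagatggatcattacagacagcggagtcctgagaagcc
Both held 0 GATA motifs and 0 E-boxes, as the window of HAND1 did. The 2 windows of GATA2 and the 6 of GATA3, both detected, also held 0 GATA motifs. E-boxes numbered 0 and 3 in the windows of GATA2, and 0 to 2 in those of GATA3. PHOX2A had 26 CpG dinucleotides in the window and TFAP2B had 5, against 16 in HAND1, 13 in HAND2 and 27 in ISL1. The 2 windows of GATA2 had 24 and 18, and the 6 windows of GATA3 had 4 to 30. Whether motifs or CpG content bear on detection was not tested.

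Levels of different genes were compared as CPM on library totals per kb of annotated exon. HAND1 led at 17.6 ± 3.86 (SD, n = 6), followed by GATA2 at 10.7 ± 1.79, GATA3 at 6.11 ± 0.420, ISL1 at 5.42 ± 0.966 and HAND2 at 0.905 ± 0.221. Each SD spans both groups and so takes in any change between them. For HAND1 the values were 13.9 to 14.8 in NS and 18.6 to 22.8 in shACSS2. HAND1 was above GATA2 in 6 of 6 libraries and GATA2 above GATA3 in 6 of 6. GATA3 was above ISL1 in 5 of 6 libraries. In NS the values of GATA3 (5.54, 6.71 and 5.91) all lay above those of ISL1 (4.27, 4.88 and 4.66), whereas in shACSS2, where ISL1 rose, those of GATA3 (5.87, 6.27 and 6.37) and ISL1 (5.83, 6.12 and 6.77) overlapped. Among protein-coding genes, 86.8% lay below HAND1 on this scale, 78.7% below GATA2, 68.2% below GATA3, 65.8% below ISL1 and 42.7% below HAND2. HAND2, the HAND factor of the sympathetic lineage, was thus in the lower part of the transcriptome and HAND1 in the upper part.

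Where a factor was at 0, its paralogs were not always so. In the SOXC family, SOX4 and SOX12 stood at 36.6 and 31.9 CPM per kb, 11535-fold and 10066-fold above the limit for SOX11. Among the AP-2 factors, TFAP2A stood at 7.67 and TFAP2C at 4.10 CPM per kb, 1704-fold and 911-fold above the limit for TFAP2B. TFAP2D had 0 counts. In the GATA family, GATA6 stood at 14.6 CPM per kb and so above GATA2 in 6 of 6 libraries, with GATA4 at 7.56 and GATA5 at 2.68, factors known from heart and gut. ISL2 stood at 8.23 CPM per kb, above ISL1 in 6 of 6 libraries.

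**Figure D3:**
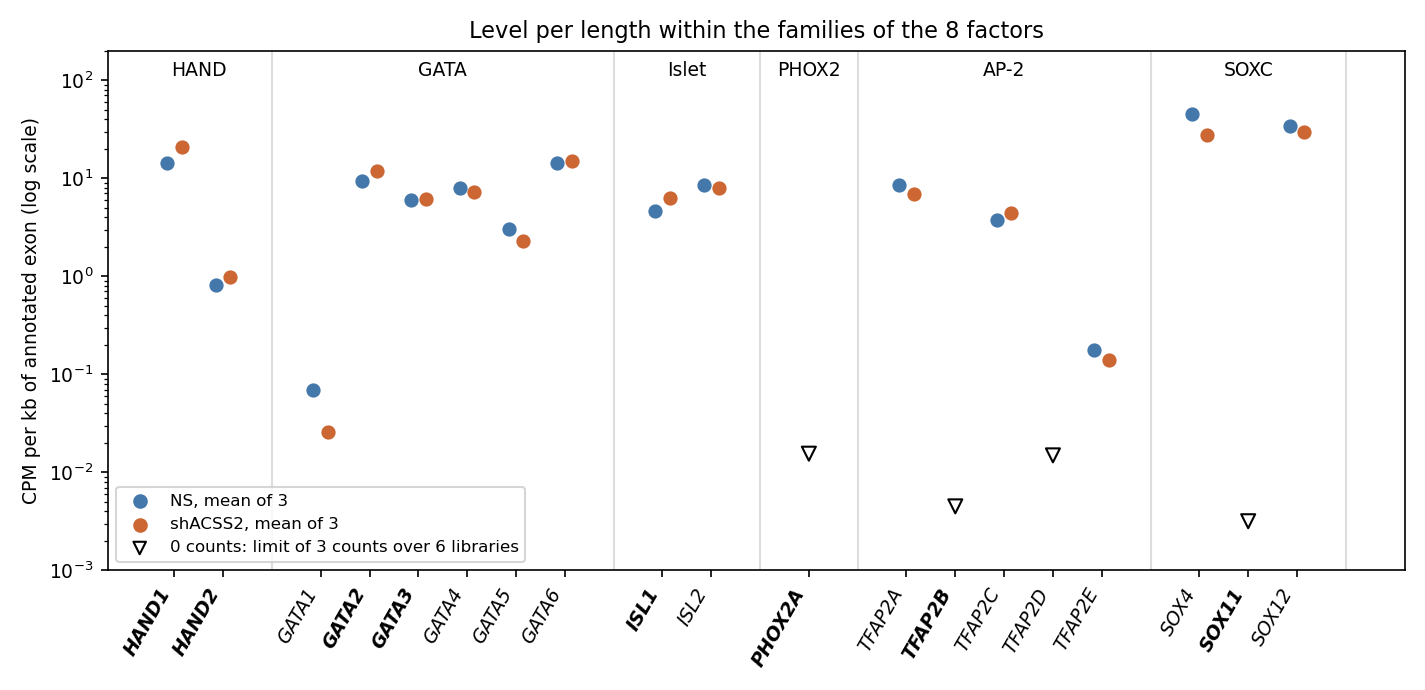
Level of the 8 factors (bold names) and their paralogs in CPM per kb of annotated exon (vertical axis, log scale), as the mean of the 3 NS and of the 3 shACSS2 libraries; triangles mark genes with 0 counts, drawn at the limit that 3 counts over the 6 libraries set. SOX11 and TFAP2B lie at the bottom beside paralogs at 31.9 to 36.6 and 4.10 to 7.67 CPM per kb, and PHOX2A is likewise drawn at its limit.

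Of 18 paralogs, 13 were tested, 1 rose, 1 fell and 11 missed the threshold, beside 17.1% called over all genes tested. SOX4 fell from 260 ± 27.5 to 167 ± 23.3 CPM (SD, n = 3 in either group), with an edgeR estimate of -0.64 in log2 units (SE 0.114) and an adjusted p of 0.00189. TWIST1, a basic helix-loop-helix relative of the HAND factors, rose by 0.51 (SE 0.161) at an edgeR adjusted p of 0.0404. That call ended on library totals, at 0.44 (edgeR adjusted p = 0.0697), and without NS replicate 1 or 3 or shACSS2 replicate 2 or 3, at 0.41 to 0.53 (edgeR adjusted p = 0.116 to 0.182). SOX12, GATA6, GATA4, TFAP2A and ISL2 had log2 fold changes of -0.12, 0.15, -0.05, -0.22 and -0.02 and did not pass the test. The median of the 13 was -0.05, beside 0.00 over all genes tested. The tested GATA, AP-2 and islet paralogs therefore gave no call, where GATA2 and ISL1 did; the difference between paralogs was not tested.

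Other transcription factors of the adrenergic circuit, a list that shares SOX4, TFAP2A and ISL2, among others, with the paralogs, were called about as often as all genes. Of 24 listed, 15 averaged 5 CPM or more, and of the 20 tested, 0 rose, 3 fell and 17 missed the threshold (median log2 fold change -0.16), beside 17.1% called over all genes tested. By an unadjusted edgeR p under 0.05, 1 was higher (LMO1) and 7 were lower, and by DESeq2 0 were higher and 2 lower. The 3 that fell were SOX4, DACH1 and MYCN. DACH1, a corepressor of developing tissues, fell by 0.37 on the log2 scale (SE 0.107) at an edgeR adjusted p of 0.0286. Its call ended when NS replicate 1, 2 or 3 or shACSS2 replicate 2 or 3 was left out, at edgeR adjusted p of 0.0509 to 0.159 and log2 fold changes of -0.41 to -0.30. MYCN had 27, 40 and 35 counts in the NS libraries, and 7, 15 and 18 in those of shACSS2, a log2 fold change of -1.14 (SE 0.370) at an edgeR adjusted p of 0.0448. That call ended when any of the 6 libraries was left out, at -1.36 to -0.86 (edgeR adjusted p = 0.0565 to 0.131), and with DESeq2 (adjusted p = 0.0886). TBX3, a T-box factor with a mean of 73.6 CPM, had a log2 fold change of 0.00 (SE 0.0925) at an edgeR adjusted p of 0.999.

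Partners and inhibitors of the factors included genes of 1 family that rose beside HAND1. Of 28 listed, 27 were tested, 3 rose, 2 fell and 22 missed the threshold (median log2 fold change 0.02). This is about the share of all genes tested, of which 17.1% were called. The 3 that rose are ID1, ID2 and ID3, which lack a DNA-binding region and hold E proteins away from factors such as HAND1 and HAND2. ID2 rose from 235 ± 13.4 to 337 ± 15.002 CPM (SD, n = 3 in either group), with an edgeR estimate of 0.52 in log2 units (SE 0.0912) and an adjusted p of 0.00167. ID3 rose from 60.6 ± 4.92 to 87.5 ± 6.24 CPM, with an edgeR estimate of 0.53 in log2 units (SE 0.102) and an adjusted p of 0.0030. ID1 had a log2 fold change of 0.45 (SE 0.112) at an edgeR adjusted p of 0.0127, but lost the call without NS replicate 1 or 3 or shACSS2 replicate 3, at 0.40 to 0.47 (edgeR adjusted p = 0.0507 to 0.0976). The fourth gene of the family, ID4, had 0.16 (SE 0.116) at an edgeR adjusted p of 0.381. The E proteins themselves did not pass the test, with log2 fold changes of 0.00 for TCF3, -0.32 for TCF4 and -0.17 for TCF12 (edgeR adjusted p = 0.999, 0.065 and 0.279).

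The 2 partners that fell belong to the AP-2 factors, of which TFAP2B was not detected. CITED2, a coactivator that links AP-2 to p300 and CBP, fell from 109 ± 8.99 to 62.8 ± 7.78 CPM (SD, n = 3 in either group), with an edgeR estimate of -0.80 in log2 units (SE 0.109) and an adjusted p of 0.000271. KCTD15, an inhibitor of AP-2, had a log2 fold change of -0.41 (SE 0.0993) at an edgeR adjusted p of 0.0119, and its call ended without NS replicate 1, at -0.37 (edgeR adjusted p = 0.0873). On library totals the count of partners that fell was 6 in place of 2. LDB1, through which LIM factors such as ISL1 act, had a log2 fold change of 0.02 (SE 0.104) at an edgeR adjusted p of 0.931.

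In the BMP pathway, which induces these factors in the embryo, 0 of 18 tested members rose, 3 fell and 15 missed the threshold (20 listed; median log2 fold change -0.08). This is about the share of all genes tested, of which 17.1% were called. By an unadjusted edgeR p under 0.05, 2 were higher (BMP4 and BMP6) and 5 were lower, and by DESeq2 0 were higher and 3 lower. ACVR2B, a type II receptor, fell from 85.7 ± 5.90 to 49.9 ± 5.55 CPM (SD, n = 3 in either group), with an edgeR estimate of -0.78 in log2 units (SE 0.107) and an adjusted p of 0.000274. BMPR1B, a type I receptor, fell from 6.28 ± 0.242 to 3.62 ± 0.0657 CPM, with an edgeR estimate of -0.79 in log2 units (SE 0.179) and an adjusted p of 0.00793. SMAD6, an inhibitor of the pathway, had a log2 fold change of -0.51 (SE 0.124) at an edgeR adjusted p of 0.0114, and lost the call without NS replicate 1 or NS replicate 3 (edgeR adjusted p = 0.0589 and 0.0521). The most abundant members, SMAD5 and BMP7, had log2 fold changes of -0.06 and 0.06 and did not pass the test.

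Noradrenergic enzymes, transporters, receptors and vesicle proteins were mostly scarce. Of 25 listed, 6 averaged 5 CPM or more, and TH, NPY, ALK and CARTPT had 0 counts in all libraries. DBH, which makes noradrenaline from dopamine, had 9, 3 and 4 counts in the NS libraries, and 3, 0 and 7 in those of shACSS2. Of the 12 tested, 1 rose, 2 fell and 9 missed the threshold (median log2 fold change 0.01), beside 17.1% called over all genes tested. CHGA, the vesicle protein chromogranin A, had 29, 43 and 40 counts in the NS libraries, and 5, 11 and 14 in those of shACSS2, and fell by 1.68 on the log2 scale (SE 0.381) at an edgeR adjusted p of 0.00798. CHGB had a log2 fold change of -1.03 (SE 0.318) at an edgeR adjusted p of 0.0366, a call that ended without NS replicate 1 or 3 or shACSS2 replicate 1 or 3 and with DESeq2 (adjusted p = 0.0711 to 0.129 and 0.0759). CHRNA3, a ganglionic acetylcholine receptor subunit, had one of 0.53 (SE 0.175) at an edgeR adjusted p of 0.0481. It lost the call under 9 of the 14 alternatives, among them the omission of each library but shACSS2 replicate 1 (edgeR adjusted p = 0.0674 to 0.146). GCH1, which makes the cofactor of TH and was the most abundant of the list at 46.0 CPM, had 0.37 (SE 0.125) and narrowly missed the threshold at an edgeR adjusted p of 0.0511. MAOA, which breaks down noradrenaline, had -0.04 (SE 0.152).

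Among 18 pan-neuronal genes, 10 were tested, of which 1 rose, 1 fell and 8 missed the threshold (median log2 fold change 0.02). The share called over all genes tested was 17.1%. GAP43, a growth cone protein, rose from 3.18 ± 0.596 to 5.89 ± 0.482 CPM (SD, n = 3 in either group), with an edgeR estimate of 0.88 in log2 units (SE 0.203) and an adjusted p of 0.00862, and lost the call without NS replicate 1, at 0.74 (edgeR adjusted p = 0.0587). INA, the intermediate filament internexin, fell from 102 ± 10.3 to 63.5 ± 7.78 CPM, with an edgeR estimate of -0.68 in log2 units (SE 0.113) and an adjusted p of 0.00106. UCHL1, the most abundant at 251 CPM, had a log2 fold change of 0.30 (SE 0.125) at an edgeR adjusted p of 0.108, and the neurofilament gene NEFM had -0.49 (SE 0.167) at one of 0.0575.

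Markers of other cell types were measured beside the factors. Of 9 defining markers of embryonic kidney, 7 averaged 5 CPM or more and 0 were at 0; their summed level was 186 to 199 CPM in NS and 165 to 191 CPM in shACSS2. In the full kidney list, 1 of 10 tested genes rose, 2 fell and 7 missed the threshold, beside 17.1% called over all genes tested. HOXD11 fell by 0.68 on the log2 scale (SE 0.139) at an edgeR adjusted p of 0.00439, and FOXC1 fell with an estimate of -0.35 (SE 0.106), while EMX2 rose with one of 0.56 (SE 0.173). The calls of FOXC1 and EMX2 ended without any of the 3 NS libraries in turn or without shACSS2 replicate 2, and that of EMX2 also without shACSS2 replicate 3 or on library totals (edgeR adjusted p = 0.0507 to 0.135 for FOXC1 and 0.053 to 0.157 for EMX2). GATA3 is also known as a factor of the kidney duct.

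Epithelial genes had a median log2 fold change of 0.28. Of 4 epithelial markers, 0 were at 0, and their summed level was 351 to 372 CPM in NS and 374 to 446 CPM in shACSS2. In the epithelial list of 7, 6 were tested, 1 rose (KRT18, log2 fold change 0.33, SE 0.0963; edgeR adjusted p = 0.0287), 0 fell and 5 did not pass the test. Its partner keratin KRT8 had 0.29 (SE 0.0971) at an edgeR adjusted p of 0.0524. KRT8 alone stood at 238 to 251 CPM in NS and 248 to 303 CPM in shACSS2 on library totals, the larger part of the summed level. EPCAM and CLDN4 had 0.58 and 0.27, whereas CDH1 and CLDN3 had -0.11 and -0.06, and none of them passed the test. The call of KRT18 ended on library totals and without NS replicate 1 or 3 or shACSS2 replicate 2 or 3 (edgeR adjusted p = 0.0732 and 0.0919 to 0.148). By an unadjusted edgeR p under 0.05, 2 were higher and 0 lower, and by DESeq2 2 were higher and 0 lower. Of 7 mesenchymal or neural crest markers, 0 were at 0 and 4 had a mean of at least 5 CPM, with summed levels of 381 to 446 CPM in NS and 372 to 425 CPM in shACSS2. SOX10, a neural crest marker, was nevertheless close to 0, with 1, 2 and 0 counts in the NS libraries, and 0, 0 and 1 in those of shACSS2. FN1, FOXD3, PRRX1, CD44 and SNAI2 averaged 62.2, 14.8, 6.18, 4.77 and 2.57 CPM on library totals, VIM being the remaining marker of the sum. In the longer crest and mesenchymal list, 1 of 17 tested genes rose, 4 fell and 12 missed the threshold. The share to set beside this list and the epithelial one is 17.1%, called over all genes tested. Among those that fell were SOX9 at -0.89 (SE 0.186), YAP1 at -0.79 (SE 0.0991) and NOTCH2 at -0.50 (SE 0.0937), with edgeR adjusted p of 0.00498, 0.000126 and 0.0026. The fourth, FN1, had -0.40 and lost the call without NS replicate 1 or NS replicate 3 (edgeR adjusted p = 0.0535 to 0.0936), and the gene that rose was TWIST1. VIM, the most abundant of the list, had 0.11 (SE 0.0943) at an edgeR adjusted p of 0.469. The part of any of these in the change of HAND1, GATA2 and ISL1 was not tested.

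**Figure D4:**
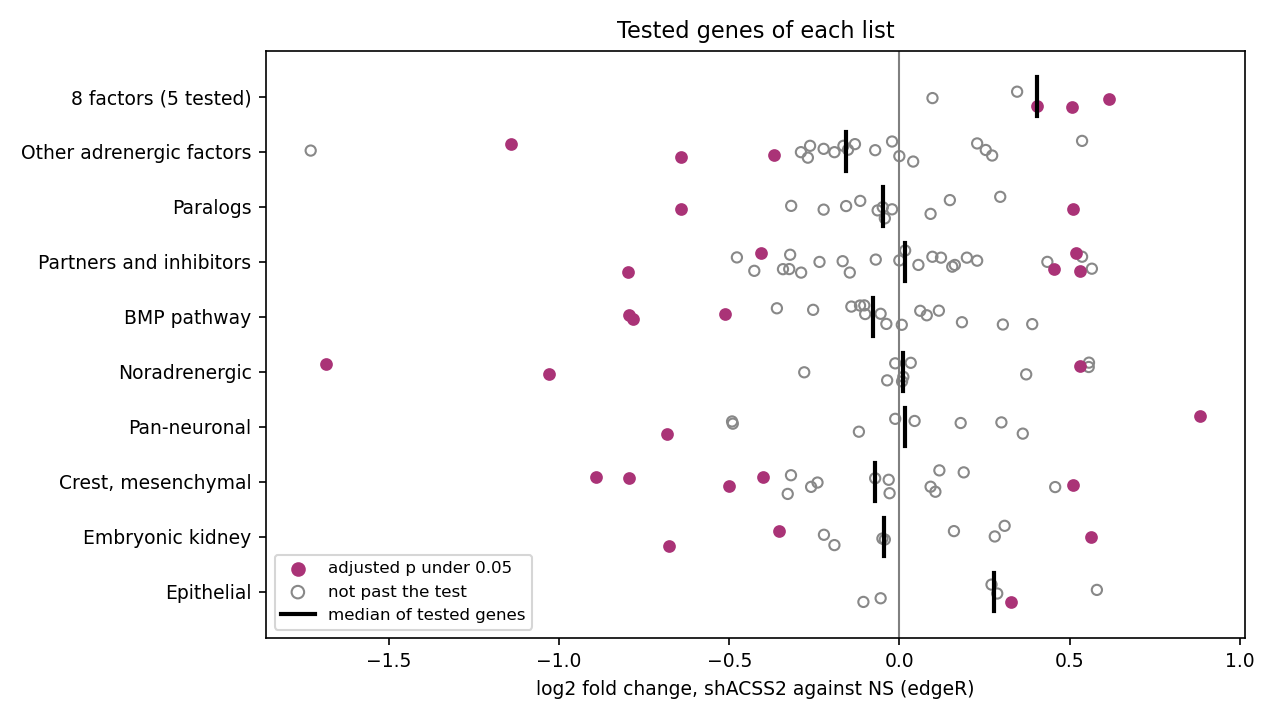
Log2 fold change of shACSS2 against NS (horizontal axis) of each tested gene of the 8 factors and of 9 other lists, filled where the edgeR adjusted p was under 0.05, with the median of the tested genes as a black bar; the vertical scatter has no meaning. The 5 tested factors all lie above 0, and the other lists spread to both sides.

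The genes whose log2 CPM followed a factor most closely over the 6 libraries were named by the highest Pearson correlation among 11893 tested genes that averaged 5 CPM or more. For HAND1 they were SNCG (gamma-synuclein) at 0.996 and IER5 at 0.994, with log2 fold changes of 1.06 (SE 0.160) and 0.40 (SE 0.0906). For ISL1 they were TMEM205 at 0.998 and MAP2K3 at 0.996, and for GATA2 they were PTBP1, a splicing regulator, and E2F1, a cell cycle factor, both at 0.993. TMEM205 and E2F1 were called higher, each with a log2 fold change of 0.44. MAP2K3 and PTBP1, with 0.22 and 0.15, did not pass the test. The calls of IER5, TMEM205 and E2F1 ended without NS replicate 1, and those of TMEM205 and E2F1 also without some other libraries. GATA3 was followed by CDKN2AIPNL at 0.969 and PRDX2 at 0.968, neither of which passed the test. These values describe 6 libraries in 2 groups and are the highest among many genes. No gene was named for more than 1 factor.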

How the data were processed

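Total RNA of 6 libraries was sequenced after a SMARTER mRNA-seq preparation, per the labels. The deposited table holds raw counts per gene, and the submitters' processing notes name fastp, HISAT2 2.0.5, featureCounts 1.5.0-p3 and hg19. The sources used here name neither a strand setting nor the treatment of multiply mapped reads. All 58735 identifiers were found in GENCODE v29 (GRCh38), which gave positions and exon lengths. Promoter windows are RefSeq's (GRCh38.p14), with an entry for 7 of the 8 factors.

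Counts were filtered by group (filterByExpr), scaled by TMM and tested over 16210 genes with edgeR 4.0.16 (robust quasi-likelihood F test, group only, Benjamini-Hochberg adjusted p under 0.05, R 4.3.3). The SE is the log2 fold change divided by the square root of F. Intervals are at 95%. Alternatives were RLE, upper quartile and library-total scaling, other count filters, DESeq2 1.42.0, limma voom 3.58.1, a replicate block and leaving out each library. The code was tested on simulated data.

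The factors and lists were chosen with earlier results of these data known. Named genes are the 8 factors, ACSS2 as label check and, from each list, up to 4 called genes averaging 1 CPM or more (by size of change), up to 2 of highest mean, and genes at 0. For factors averaging 5 CPM or more, the 2 tested genes of such a mean with the highest correlation are named. LMO1, BMP4 and BMP6, genes of low counts of calls, were named after their values were seen. Some genes that this rule names are not reported here.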

Additional observations from a re-analysis of the deposited data

How the results depend on the processing

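HAND1 rose under all 14 alternatives, and HAND2 and GATA3 passed the test under none. Leaving out 1 library at a time gave 1 to 3 factors that rose, log2 fold changes of 0.31 to 0.52 for GATA2 and 0.45 to 0.57 for ISL1, 310 to 1837 genes higher and 708 to 2094 lower over all genes. The lowest of these counts, 310 and 708, came without NS replicate 1, and 1837 without shACSS2 replicate 1. With NS replicate 3 left out they were 363 and 788, and without shACSS2 replicate 2, 801 genes were higher. On library totals GATA2 had 0.33, and 734 genes were higher and 2108 lower, 25.8% of calls being higher against 43.7% with TMM. On library totals, too, 0 paralogs, 0 noradrenergic, 0 crest or mesenchymal, 0 embryonic kidney and 0 epithelial genes were higher, and 6 partners and 2 pan-neuronal genes were lower. With upper quartile scaling 2 noradrenergic and 2 epithelial genes were higher, and with RLE 2 epithelial genes. DESeq2 called 2 circuit factors, 1 noradrenergic gene and 2 pan-neuronal genes lower, and 2 epithelial genes higher. The cause of these shifts was not tested. Replicate numbers are shared by the groups, but same-numbered libraries did not deviate together (r = -0.06, -0.09 and 0.15). With the replicate block, 3 factors rose, HAND1 by 0.61 (edgeR adjusted p = 0.000964), and 1283 genes were higher and 1640 lower. Depth limits what can be said of HAND2, at 40 to 76 counts a library. For the 3 factors at 0 it sets only the limit, and whether they are expressed below that limit was not tested.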
